A study of Homo sapiens with 12 samples.

Results

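The protein MRG15, encoded by MORF4L1, sits in both the TIP60/NuA4 acetyltransferase complex and the SIN3 deacetylase complex. The messenger RNA of 37 other genes of these complexes was followed when MRG15 was targeted for knock-out and when fibroblasts were reprogrammed. The genes were taken from a list of known subunits without a cut on any measured value, but with earlier results of these data known. Of them, 17 encode NuA4 subunits and 20 encode SIN3 subunits or KDM5 demethylases, and all 37 were found among the 60660 gene identifiers and tested among 14858 genes.

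The cells were of the line dH1f, human fibroblasts made by differentiating the embryonic stem cell line H1. Libraries came from 4 groups of 3 replicates each. These were cells with a lentiCRISPRv2 guide against MRG15 (KO) on day 6 after OSKM, cells with a non-targeting control guide (NT) on day 6 after OSKM, KO cells before OSKM (day 0), and NT cells before OSKM (day 0). OSKM stands for OCT4, SOX2, KLF4 and MYC, the factors that turn somatic cells into pluripotent ones. The labels give 1 guide group against MRG15 and do not say whether KO cells are a clone or a pool, nor whether replicates are separate cultures, and the p-values below take in no more than the spread among these libraries. No day 6 culture without OSKM is among the samples, so the effect of OSKM and that of time in culture cannot be told apart.

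NuA4 is built on the large proteins EP400 and TRRAP. It carries KAT5 (TIP60), which acetylates histones H4 and H2A, and EP400 also helps to place the histone variant H2A.Z. The SIN3 complexes hold the deacetylases HDAC1 and HDAC2 on the scaffold SIN3A or SIN3B, and remove the acetyl groups again. MRG15 has a chromodomain that binds histone H3 methylated at lysine 36, and it belongs to both machines. In mouse embryonic stem cells, the Tip60-p400 complex is known to be needed for stem cell identity.

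Levels below are normalised counts estimated from the deposited values. A difference is that of group means on the deposited log2 scale, the variance-stabilised or VST scale, with its standard error (SE). A gene was called at an adjusted p under 0.05 in limma, with p-values adjusted over all 14858 genes. Estimated depth was 17.91 to 22.18 M reads per library, and mitochondrial transcripts took 4.18 to 5.53% of the normalised counts. The 10 fibroblast markers were present in every group, with summed levels of 201353 to 215032 in KO cells and 572250.2 to 607367 in NT cells on day 6, and 867639 to 878156 in KO cells and 1174689.5 to 1254191 in NT cells on day 0. The 8 pluripotency markers summed to 20489.5 to 21069.5 in KO cells and 13646 to 14194 in NT cells on day 6, and to at most 244 in any library of day 0. They include POU5F1 (OCT4) and SOX2, which OSKM itself supplies. Reads of delivered and native copies were not told apart here. Markers of blood cells summed to at most 80.0 normalised counts in any library. In bulk RNA, fewer cells of a type and less RNA per cell cannot be told apart.

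The RNA of the target gene was low in the KO libraries. MORF4L1 (chr15:78810487-78898133, plus strand; GRCh38) had 1059, 961 and 1040.0 normalised counts in KO cells on day 6, against 6709, 7116 and 7042 in NT cells. On day 0 it had 1292, 1301 and 1421 in KO cells, against 7682, 7773 and 7863 in NT cells. The groups were far apart on both days, at -2.70 (SE 0.05, adjusted p = 8.36e-14) for day 6 and at -2.49 (SE 0.05, adjusted p = 3.42e-13) for day 0, and every library matched its label. The remaining transcripts were not examined for edits, and these RNA data do not measure MRG15 protein. MORF4L2, the closest paralog of MRG15, had 4933 ± 111 in KO cells and 5172 ± 249.6 in NT cells on day 6 (SD, n = 3 each), and was not called on day 6, at -0.07 (adjusted p = 0.326) or on day 0, at -0.05 (adjusted p = 0.545).

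Between KO and NT cells, fewer subunits of the 2 complexes of MRG15 were called on day 0 than on day 6, as was so for all genes tested. On day 6, 11 of the 37 genes were called between KO and NT cells, or 29.7%, while 36.9% of all genes tested were called. The libraries of the genotypes did not overlap for 13 of 37 genes, and for 49.6% of all genes. Of the 11 called genes, 8 were higher in KO cells, where 17.7% of all genes were, and 3 were lower, where 19.2% were. The SIN3 and KDM5 genes had 6 higher and none lower at that threshold, and the NuA4 genes had 2 higher and 3 lower. On day 0, 5 of 37 genes were called, or 13.5%, beside 18.2% of all genes, with 4 higher (7.42% of all genes) and 1 lower (10.7%). Again 13 of 37 did not overlap, beside 33.6% of all genes. The subunit genes were thus called at no greater share than genes in general on either day. The median difference was 0.054 for NuA4 and 0.099 for SIN3 genes on day 6, beside 0.006 for all genes, and on day 0 it was 0.004 for NuA4 and 0.116 for SIN3 genes, beside -0.004.

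**Figure D1:**
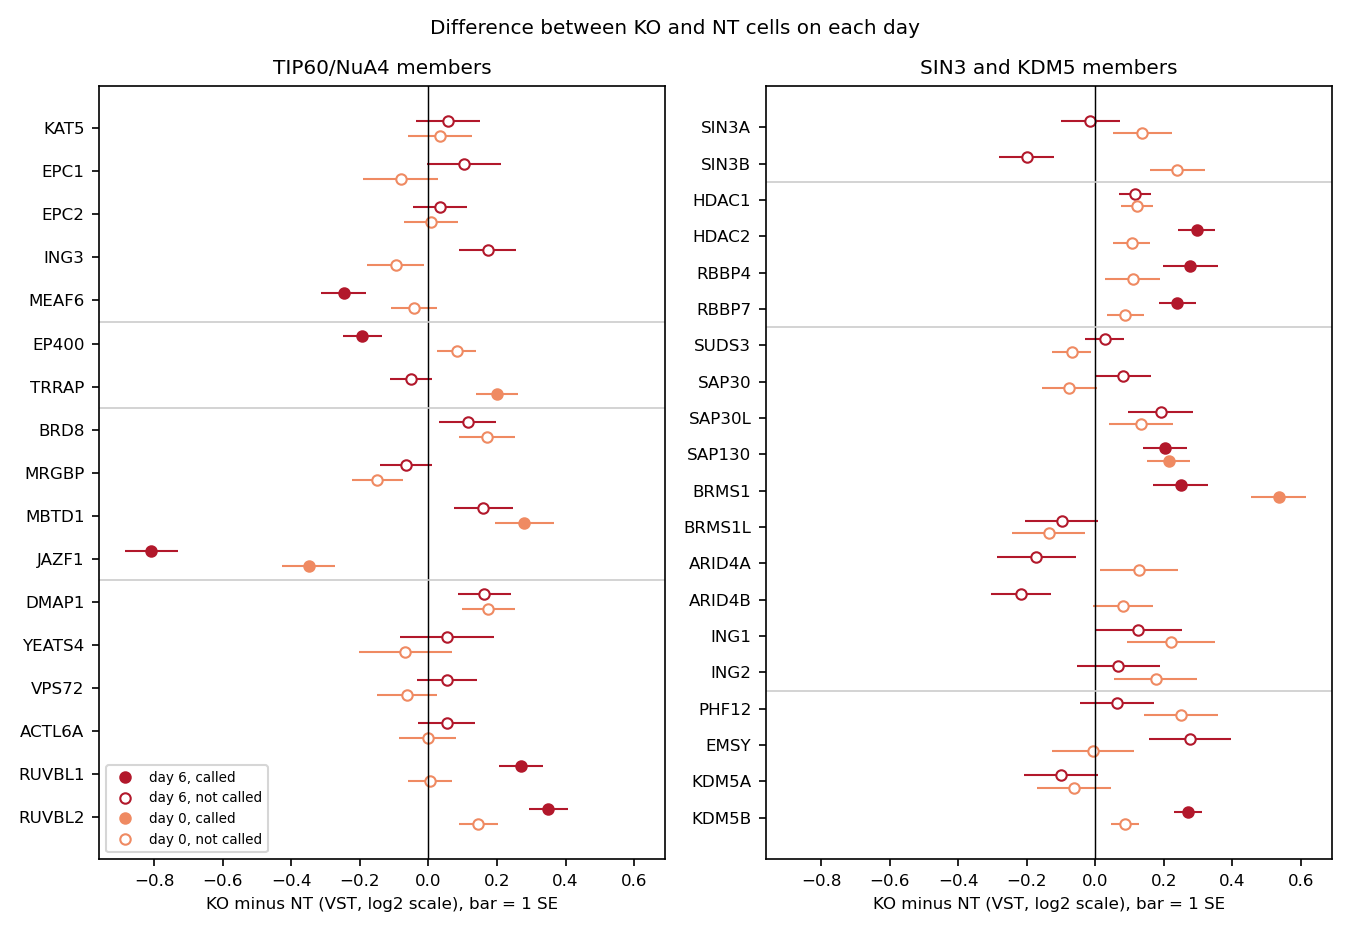
Difference between KO and NT cells (VST, log2 scale; horizontal axis) for each of the 37 genes (vertical axis, grouped by complex) on day 6 and day 0, with bars of 1 SE; filled points are called genes. JAZF1 lies lowest on both days, at -0.81 on day 6 and -0.35 on day 0, and BRMS1 highest on day 0, at 0.54.

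Among the NuA4 subunits that read chromatin or partner MRG15, JAZF1 was lower in KO cells on both days. JAZF1 (chr7:27830573-28180743, minus strand) encodes a zinc finger protein that joins the NuA4 complex. It had 249, 226 and 204 normalised counts in KO cells on day 6, against 443, 403 and 462 in NT cells. On day 0 it had 906, 875 and 908 in KO cells, against 1075, 1226 and 1173 in NT cells. No KO library reached any NT library of the same day. The difference was -0.81 (SE 0.08, adjusted p = 1.44e-06) on day 6, while that of day 0 was -0.35 (SE 0.08, adjusted p = 0.00598), and the KO level was 0.519 times that of NT cells on day 6 and 0.774 times on day 0. TAX1BP1, which overlaps JAZF1 on the other strand, differed by -0.04 on day 6 and -0.15 on day 0 and was called on neither day.

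The other 3 genes of this module moved less. MRGBP and BRD8, which with MRG15 form a module of NuA4 that can also stand alone, were not called on either day. Neither overlapped between genotypes on day 0, when 33.6% of all genes did not. MRGBP differed by -0.07 (adjusted p = 0.54) on day 6, by -0.15 (adjusted p = 0.201) on day 0, and BRD8 by 0.11 (adjusted p = 0.3) on day 6, by 0.17 (adjusted p = 0.176) on day 0. MBTD1, which binds methylated H4, had 371, 362 and 346 normalised counts in KO cells on day 0, against 251, 322 and 291 in NT cells. It was higher in KO cells without overlap, with a difference of 0.28 (SE 0.09, adjusted p = 0.0357), and differed by 0.16 (adjusted p = 0.162) on day 6. The MBTD1 call on day 0 was lost without KO library 1, 2 or 3 of day 0, NT library 1 or 3 of day 0, with no filter or in a fit of the 2 compared groups alone (adjusted p 0.0595 to 0.14).

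The 2 large scaffolds of NuA4 were called on different days. EP400, the remodelling ATPase, had 1198, 1243 and 1211 normalised counts in KO cells on day 6, against 1379, 1369.8 and 1449.8 in NT cells. It was lower in KO cells without overlap, with a difference of -0.19 (SE 0.06, adjusted p = 0.0166), and on day 0 differed by 0.08 (adjusted p = 0.364). The EP400 call on day 6 was lost without KO library 1 of day 6, NT library 3 of day 6 or with no filter (adjusted p 0.053 to 0.0637). TRRAP, a pseudokinase that binds activators, had 2083, 2096 and 2228 in KO cells on day 0, against 1861, 1729.5 and 1964 in NT cells. It was higher in KO cells on day 0, by 0.20 (SE 0.06, adjusted p = 0.0327), and differed by -0.05 (adjusted p = 0.548) on day 6. The TRRAP call on day 0 was lost without KO library 1, 2 or 3 of day 0, NT library 1 or 2 of day 0, with limma without the trend, with no filter or in a fit of the 2 compared groups alone (adjusted p 0.0567 to 0.126). EP400 has a transcribed pseudogene copy, EP400P1, with a mean of 250.2 normalised counts, so part of its reads could have been assigned to either.

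Of the 5 genes of the catalytic module, 1 was called between genotypes, on day 6. MEAF6, a small protein found in several acetyltransferase complexes, had 473, 488 and 488 normalised counts in KO cells on day 6, against 579.5, 623 and 551 in NT cells. It was lower in KO cells without overlap, with a difference of -0.25 (SE 0.07, adjusted p = 0.00841). KAT5 itself had 709.8 ± 118 in KO cells and 676 ± 53.4 in NT cells on day 6, and on day 0 640.1 ± 20.2 in KO and 624 ± 28.5 in NT cells (SD, n = 3 each). Its groups overlapped on both days, with 0.06 (adjusted p = 0.674) for day 6 and 0.03 (adjusted p = 0.84) for day 0. EPC1, EPC2 and ING3, which hold KAT5 on the nucleosome or read methylated H3, differed by 0.03 to 0.17 on day 6 and by -0.10 to 0.01 on day 0, none called. ING3 did not overlap between genotypes on day 6, when 49.6% of all genes did not.

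Of the 6 subunits that NuA4 shares with the SRCAP or INO80 remodellers, both AAA+ ATPases were higher in KO cells on day 6. RUVBL1 and RUVBL2 build the ring on which these remodellers assemble. RUVBL1 (chr3:128064778-128153914, minus strand) had 2459, 2538 and 2439 normalised counts in KO cells on day 6, against 1975, 2224 and 1954 in NT cells. RUVBL2 (chr19:48993448-49015995, plus strand) had 3152, 2875 and 2934 in KO cells on day 6, against 2293, 2385 and 2313 in NT cells. Neither overlapped between genotypes on day 6, with differences of 0.27 (SE 0.06, adjusted p = 0.00414) for RUVBL1 and 0.35 (SE 0.06, adjusted p = 0.000231) for RUVBL2. On day 0, RUVBL1 had 899, 1032 and 1005 in KO cells and 936, 1017 and 972 in NT cells, and RUVBL2 had 1972, 1994 and 1837 in KO cells and 1731, 1869 and 1632 in NT cells. Those day 0 groups overlapped for both genes, and neither was called, at 0.00 (adjusted p = 0.979) and 0.15 (adjusted p = 0.0944). DMAP1, YEATS4, VPS72 and ACTL6A differed by 0.05 to 0.16 on day 6 and by -0.07 to 0.17 on day 0, and none was called. Without KO library 1 of day 6, DMAP1 was called on day 6 (adjusted p = 0.0415). Without NT library 2 of day 0, RUVBL2 was called on day 0 (adjusted p = 0.0376).

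The deacetylase core of SIN3 was the module with most called genes on day 6, 3 of 4, all higher in KO cells, where 17.7% of all genes were higher. HDAC2, one of the 2 deacetylases, had 4971, 4635 and 4607 normalised counts in KO cells on day 6, against 3550.5, 4106 and 3903 in NT cells. It did not overlap between genotypes and differed by 0.30 (SE 0.05, adjusted p = 0.000553). RBBP7, a histone chaperone of the WD40 family, had 3455, 3069 and 3495 in KO cells on day 6, against 2757, 2856 and 2829 in NT cells, a difference of 0.24 (SE 0.06, adjusted p = 0.00331) without overlap. Its paralog RBBP4 had 4046, 3324 and 4428 in KO cells, against 3202, 3102 and 3332 in NT cells. RBBP4 was called, at 0.28 (SE 0.08, adjusted p = 0.0134) although KO library 2 lay just below NT library 3. The RBBP4 call on day 6 was lost without KO library 1 or 3 of day 6 (adjusted p 0.05 to 0.0716). HDAC1 did not overlap between genotypes on either day but was not called, with 0.12 (adjusted p = 0.0708) for day 6 and 0.12 (adjusted p = 0.0911) for day 0. Without NT library 1 of day 6, with a common median or after quantile normalisation, HDAC1 was called on day 6 (adjusted p 0.0362 to 0.0395). On day 0 the other 3 genes differed by 0.09 to 0.11, and none was called. After quantile normalisation, HDAC1 was called on day 0 (adjusted p = 0.0401). After quantile normalisation, HDAC2 was called on day 0 (adjusted p = 0.0464).

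The same comparisons moved genes of dividing cells. Of 8 cycling genes, 7 were higher in KO cells on day 6 and 8 on day 0. Their summed level was 23173 to 24649 normalised counts in KO cells and 18886 to 19856 in NT cells on day 6, and 11854 to 12299 in KO cells and 8416 to 8849 in NT cells on day 0. Markers of other cells moved as well. Epithelial markers had 3 of 6 higher in KO cells on day 6, with sums of 29479 to 30734.5 in KO and 22279 to 24649 in NT cells, and 1 lower on day 0, with 9435 to 9592 in KO and 10329.9 to 11278 in NT cells. Of the 5 neural markers only 2 were tested. Both were higher in KO cells on day 6, and 1 on day 0. The 5 summed to 7950.5 to 8583 in KO and 6429 to 6871 in NT cells on day 6. In the fibroblasts of day 0 they already summed to 4446 to 4683 in KO and 3714.5 to 4206 in NT cells. Of 4 tested endothelial markers none was called on day 6, with sums of 4688 to 4972.5 in KO and 4768 to 4831 in NT cells, and 2 were higher on day 0, with 994 to 1052 in KO and 958 to 1039 in NT cells. Pluripotency markers, the OSKM factors POU5F1 and SOX2 among them, had 5 of 8 higher in KO cells on day 6 and 1 on day 0. Fibroblast markers had 1 higher and 9 lower in KO cells on day 6, and 3 higher and 5 lower on day 0. The blood marker PTPRC, the 1 tested, was higher in KO cells on day 6. The part of cell division and of these cell types in the KO effects on the 37 genes was not tested. RUVBL1, RUVBL2, HDAC2, RBBP4 and RBBP7 also belong to other complexes, HDAC2 and the RBBP proteins to NuRD among them.

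Promoters are shown for the 6 genes that were called higher in KO than in NT cells on day 6 and called higher on day 6 than on day 0 in both genotypes. The windows run from 250 bases before to 50 after a RefSeq start of the gene (GRCh38.p14), which can differ from the GENCODE start. They lie at chr19:48993198-48993497 and chr1:32650958-32651257 on the plus strand and at chr3:128153865-128154164, chr6:113971099-113971398, chrX:16870313-16870612 and chr1:202808372-202808671 on the minus strand. RUVBL1, RUVBL2, RBBP4 and RBBP7 have more than 1 window in the RefSeq table. For each gene the window nearest the GENCODE start is shown. The start used for HDAC2 lay at 113971148, while its GENCODE start is 114011308. For KDM5B the start used lay at 202808421, against 202809470. They are written 5′ to 3′ on the gene's strand, and capitals mark 2 motifs sought on both strands, the E-box CACGTG, which MYC can bind, and the CCAAT box, which NF-Y can bind.
RUVBL1: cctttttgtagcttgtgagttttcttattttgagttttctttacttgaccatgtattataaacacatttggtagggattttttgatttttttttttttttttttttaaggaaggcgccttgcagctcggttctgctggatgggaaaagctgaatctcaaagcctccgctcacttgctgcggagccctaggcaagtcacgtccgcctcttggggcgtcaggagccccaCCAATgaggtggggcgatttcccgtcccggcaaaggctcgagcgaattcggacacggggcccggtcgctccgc
RUVBL2: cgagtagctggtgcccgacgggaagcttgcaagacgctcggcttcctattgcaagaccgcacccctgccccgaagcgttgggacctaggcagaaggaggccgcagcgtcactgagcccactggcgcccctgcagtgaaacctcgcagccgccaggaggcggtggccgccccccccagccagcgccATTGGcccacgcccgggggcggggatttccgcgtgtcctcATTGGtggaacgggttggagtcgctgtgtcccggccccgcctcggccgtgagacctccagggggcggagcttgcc
HDAC2: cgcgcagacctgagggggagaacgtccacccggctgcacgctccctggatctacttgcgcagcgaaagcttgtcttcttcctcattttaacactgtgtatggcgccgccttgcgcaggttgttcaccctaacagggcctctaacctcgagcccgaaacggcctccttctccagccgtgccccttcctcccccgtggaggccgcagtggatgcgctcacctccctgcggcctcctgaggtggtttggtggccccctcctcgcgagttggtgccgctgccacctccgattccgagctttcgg
RBBP4: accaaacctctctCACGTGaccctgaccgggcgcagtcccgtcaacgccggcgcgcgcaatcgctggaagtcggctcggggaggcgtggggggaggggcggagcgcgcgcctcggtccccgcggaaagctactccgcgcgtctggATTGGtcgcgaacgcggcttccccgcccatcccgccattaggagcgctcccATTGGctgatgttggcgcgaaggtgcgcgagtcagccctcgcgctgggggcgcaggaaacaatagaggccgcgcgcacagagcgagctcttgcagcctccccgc
RBBP7: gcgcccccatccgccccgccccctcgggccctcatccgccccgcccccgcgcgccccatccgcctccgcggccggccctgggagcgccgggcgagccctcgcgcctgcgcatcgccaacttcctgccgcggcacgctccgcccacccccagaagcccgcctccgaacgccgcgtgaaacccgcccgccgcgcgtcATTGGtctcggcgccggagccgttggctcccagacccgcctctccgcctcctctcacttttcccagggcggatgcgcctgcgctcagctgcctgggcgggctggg
KDM5B: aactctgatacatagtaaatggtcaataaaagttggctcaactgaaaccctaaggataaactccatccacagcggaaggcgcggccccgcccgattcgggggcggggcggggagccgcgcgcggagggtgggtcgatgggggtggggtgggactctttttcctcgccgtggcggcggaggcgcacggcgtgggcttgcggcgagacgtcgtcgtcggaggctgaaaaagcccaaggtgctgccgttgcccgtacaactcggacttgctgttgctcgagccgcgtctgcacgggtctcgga
Of the windows shown, those of RUVBL1 and RBBP7 hold 1 CCAAT box each and that of RUVBL2 holds 2. The RBBP4 window shown holds 2 CCAAT boxes and 1 E-box. The HDAC2 and KDM5B windows hold neither. Of the 37 genes, 32 had a promoter in the RefSeq table, with 42 windows in all. The E-box was in 2 of these 42 windows, those of RBBP4 and KAT5, while 7.26% of all 35116 windows held it. The CCAAT box was in 23 of the 42 windows, from 17 genes, while 34.6% of all windows held it. A match of letters is a description and does not show that a factor binds there.

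The accessory subunits of SIN3 held the gene with the largest day 0 rise. BRMS1 (chr11:66337333-66345125, minus strand), named as a suppressor of breast cancer metastasis, had 1106, 1146 and 1044 normalised counts in KO cells on day 0, against 799, 804 and 630.1 in NT cells. On day 6 it had 1161, 1229 and 1157 in KO cells, against 1016, 1004 and 940.0 in NT cells. Every KO library lay above every NT library of its day, with a difference of 0.25 (SE 0.08, adjusted p = 0.0239) for day 6 and of 0.54 (SE 0.08, adjusted p = 0.000315) for day 0. The KO level was 1.2 times that of NT cells on day 6 and 1.48 times on day 0. The BRMS1 call on day 6 was lost without KO library 2 of day 6, NT library 3 of day 6 or with no filter (adjusted p 0.0535 to 0.0858).

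SAP130 was the other accessory subunit higher in KO cells on both days. It had 756, 841 and 826 normalised counts in KO cells on day 6, against 716, 639 and 728 in NT cells, and 737, 749 and 731 in KO cells on day 0, against 633, 624 and 632 in NT cells. The difference was 0.20 (SE 0.06, adjusted p = 0.0215) on day 6, that of day 0 0.21 (SE 0.06, adjusted p = 0.032), without overlap on either day. The SAP130 call on day 6 was lost without KO library 2 or 3 of day 6, NT library 2 of day 6 or with no filter (adjusted p 0.0673 to 0.102). The SAP130 call on day 0 was lost without KO library 1, 2 or 3 of day 0, NT library 1, 2 or 3 of day 0 or with no filter (adjusted p 0.0635 to 0.0947). The other 8 accessory genes were not called on either day. They are SUDS3, SAP30, SAP30L, BRMS1L, ARID4A, ARID4B, ING1 and ING2, the last of which reads methylated H3 lysine 4 as ING1 does. Their differences lay between -0.22 (ARID4B) and 0.19 (SAP30L) on day 6, and between -0.14 (BRMS1L) and 0.22 (ING1) on day 0. Without NT library 1 of day 6 or NT library 1 of day 0, ARID4B was called on day 6 (adjusted p 0.024 to 0.0347). Without NT library 3 of day 6, SAP30L was called on day 6 (adjusted p = 0.017).

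The scaffolds SIN3A and SIN3B were not called between genotypes on either day. SIN3B (chr19:16829400-16880353, plus strand) had 898, 1125 and 977 normalised counts in KO cells on day 6, against 1262, 1117 and 1084 in NT cells. On day 0 it had 1549, 1549.6 and 1604 in KO cells, against 1343, 1213 and 1405 in NT cells. The day 6 groups overlapped and the day 0 groups did not, with a difference of -0.20 (SE 0.08, adjusted p = 0.0657) for day 6 and of 0.24 (SE 0.08, adjusted p = 0.0519) for day 0. Without KO library 2 of day 6, SIN3B was called on day 6 (adjusted p = 0.013). Without KO library 1 or 2 of day 6, NT library 1 of day 6, NT library 3 of day 0, with a filter at 2 above the lowest value, in a fit of the 2 compared groups alone or after quantile normalisation, SIN3B was called on day 0 (adjusted p 0.029 to 0.0454). SIN3A had 1032, 1206 and 1176 in KO cells on day 6, against 1071, 1168 and 1206 in NT cells, and 1044, 1079.6 and 1341 in KO cells on day 0, against 1067, 1030.5 and 1019 in NT cells. Its groups overlapped on both days, with -0.01 (adjusted p = 0.919) for day 6 and 0.14 (adjusted p = 0.308) for day 0.

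SIN3A lies on chromosome 15, 3.44 Mb from the edited gene. The 317 genes of that chromosome with a mean VST of at least 8, MORF4L1 among them, had a median of -0.109 for this difference on day 6, and of -0.184 on day 0. The 9462 such genes of the other chromosomes had a median of 0.018 on day 6 and -0.015 on day 0. Of the 317, 115 were lower and 32 higher in KO cells on day 6, and 121 lower and 13 higher on day 0. The 55 genes within 5 Mb of MORF4L1 had a median of -0.048 on day 6 and -0.20 on day 0. Set against the median of its chromosome, SIN3A was 0.10 higher in KO cells on day 6 and 0.32 higher on day 0. These shifted values were not tested, and SIN3A itself was called on neither day. Before the shift, its day 0 difference ranged from 0.03 to 0.20 over the alternative fits. Whether chromosome 15 was present at the same number of copies in the KO cells was not tested.

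**Figure D2:**
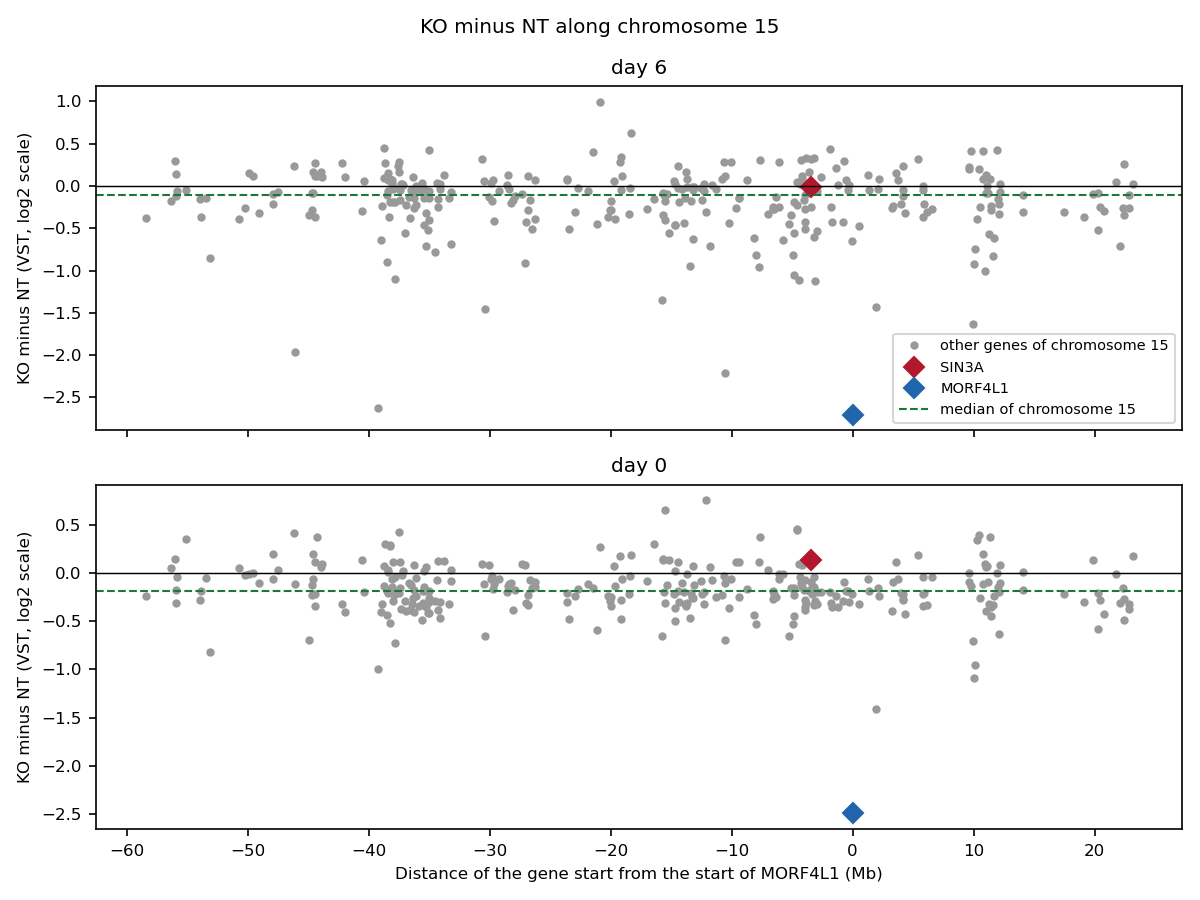
Difference between KO and NT cells (VST, log2 scale; vertical axis) for genes of chromosome 15 against the distance of the gene start from that of MORF4L1 (Mb; horizontal axis), on day 6 (top) and day 0 (bottom), with the chromosome's median as a dashed line. SIN3A lies above that median on both days, at -0.01 on day 6 and 0.14 on day 0, while the median is -0.109 on day 6 and -0.184 on day 0.

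PHF12 and EMSY, members of the form of SIN3 that holds MRG15 and KDM5A, were not called on either day. EMSY did not overlap between genotypes on day 6, at 0.28 (adjusted p = 0.0818), and differed by -0.01 (adjusted p = 0.983) on day 0. Without KO library 1 of day 0 or in a fit of the 2 compared groups alone, EMSY was called on day 6 (adjusted p 0.0143 to 0.0297). For PHF12 the values were 0.06 (adjusted p = 0.681) for day 6 and 0.25 (adjusted p = 0.128) for day 0. Of the KDM5 enzymes, which remove methyl groups from H3 lysine 4, KDM5A was not called on either day, with -0.10 (adjusted p = 0.508) for day 6 and -0.06 (adjusted p = 0.742) for day 0. KDM5B had 4206, 4326 and 4529 normalised counts in KO cells on day 6, against 3552, 3614 and 3613 in NT cells. It was higher in KO cells without overlap, by 0.27 (SE 0.04, adjusted p = 0.000131), and on day 0 differed by 0.09 (adjusted p = 0.176). After quantile normalisation, KDM5B was called on day 0 (adjusted p = 0.0188).

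**Figure D3:**
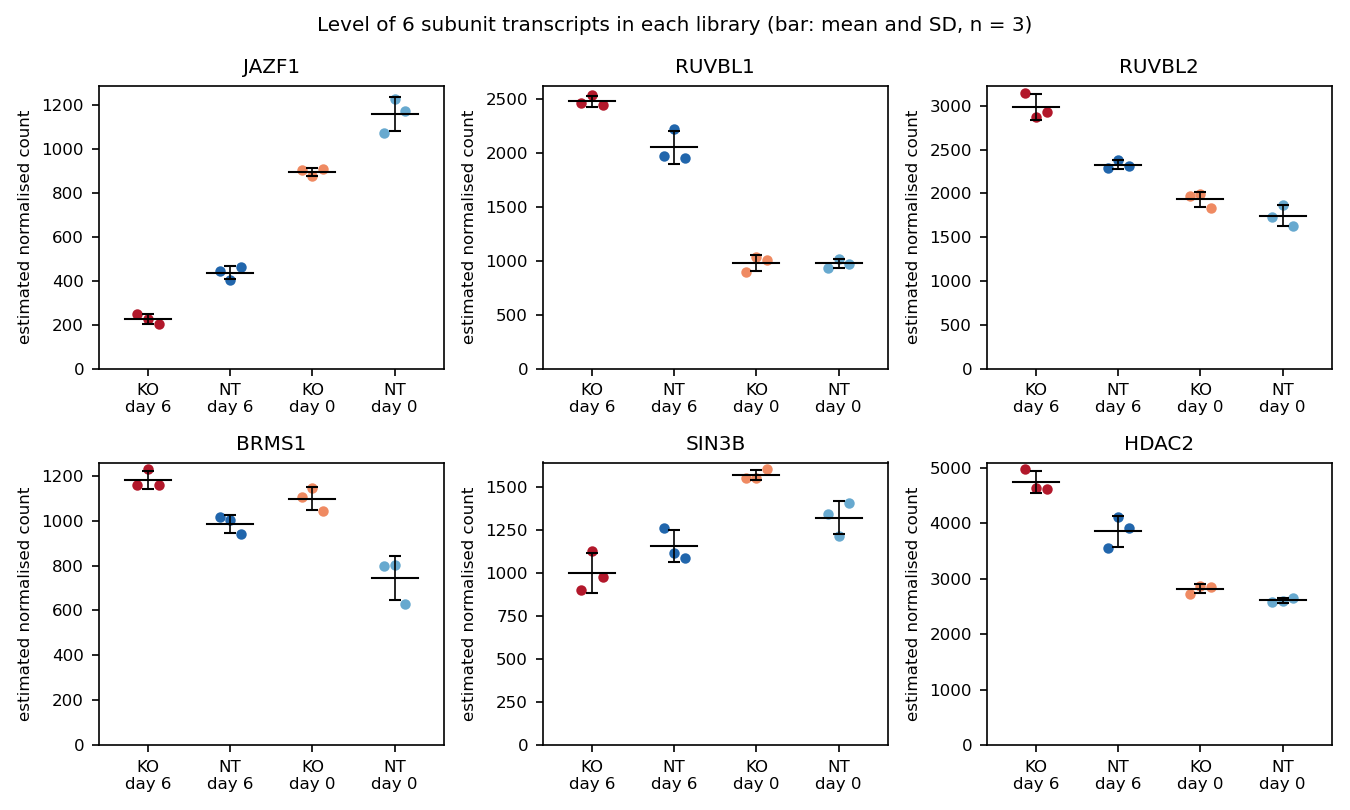
Normalised counts (vertical axes, from 0) of JAZF1, BRMS1, RUVBL1, RUVBL2, SIN3B and HDAC2 in each library (points), with bars for the group mean and SD (n = 3), for KO and NT cells on day 6 and on day 0. JAZF1 is lowest in KO cells on day 6, at 204 to 249, and BRMS1 lowest in NT cells on day 0, at 630.1 to 804.

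Over the 6 days of reprogramming, most of the 37 genes were called in each genotype, as were most of all genes tested. In KO cells 30 genes were called, or 81.1%, beside 73.8% of all genes tested, and 32 did not overlap between the days, beside 76.4%. There were 19 higher on day 6 (37.6% of all genes) and 11 lower (36.2%). In NT cells 23 were called, or 62.2%, beside 66.8% of all genes, and 26 did not overlap, beside 69.6%. There were 16 higher (33.6% of all genes) and 7 lower (33.1%). The median difference between day 6 and day 0 was 0.239 for NuA4 and 0.158 for SIN3 genes in KO cells, beside 0.011 for all genes. In NT cells these medians were 0.123 for NuA4 and 0.132 for SIN3 genes, beside -0.002. The NuA4 genes had 9 higher and 6 lower in KO cells and 8 and 4 in NT cells, and the SIN3 and KDM5 genes 10 and 5 in KO cells and 8 and 3 in NT cells. Cycling genes were higher on day 6 in both genotypes, 8 of 8, and their part in these values was not tested. The fibroblast markers were lower, 10 of 10 in KO cells and 9 of 10 in NT cells, where 1 was higher. Of markers of other cell types, 6 of 6 epithelial genes were higher on day 6 in both genotypes, 3 of 4 tested endothelial genes in KO cells and 4 of 4 in NT cells, and both tested neural genes in both, and their part was not tested either.

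**Figure D4:**
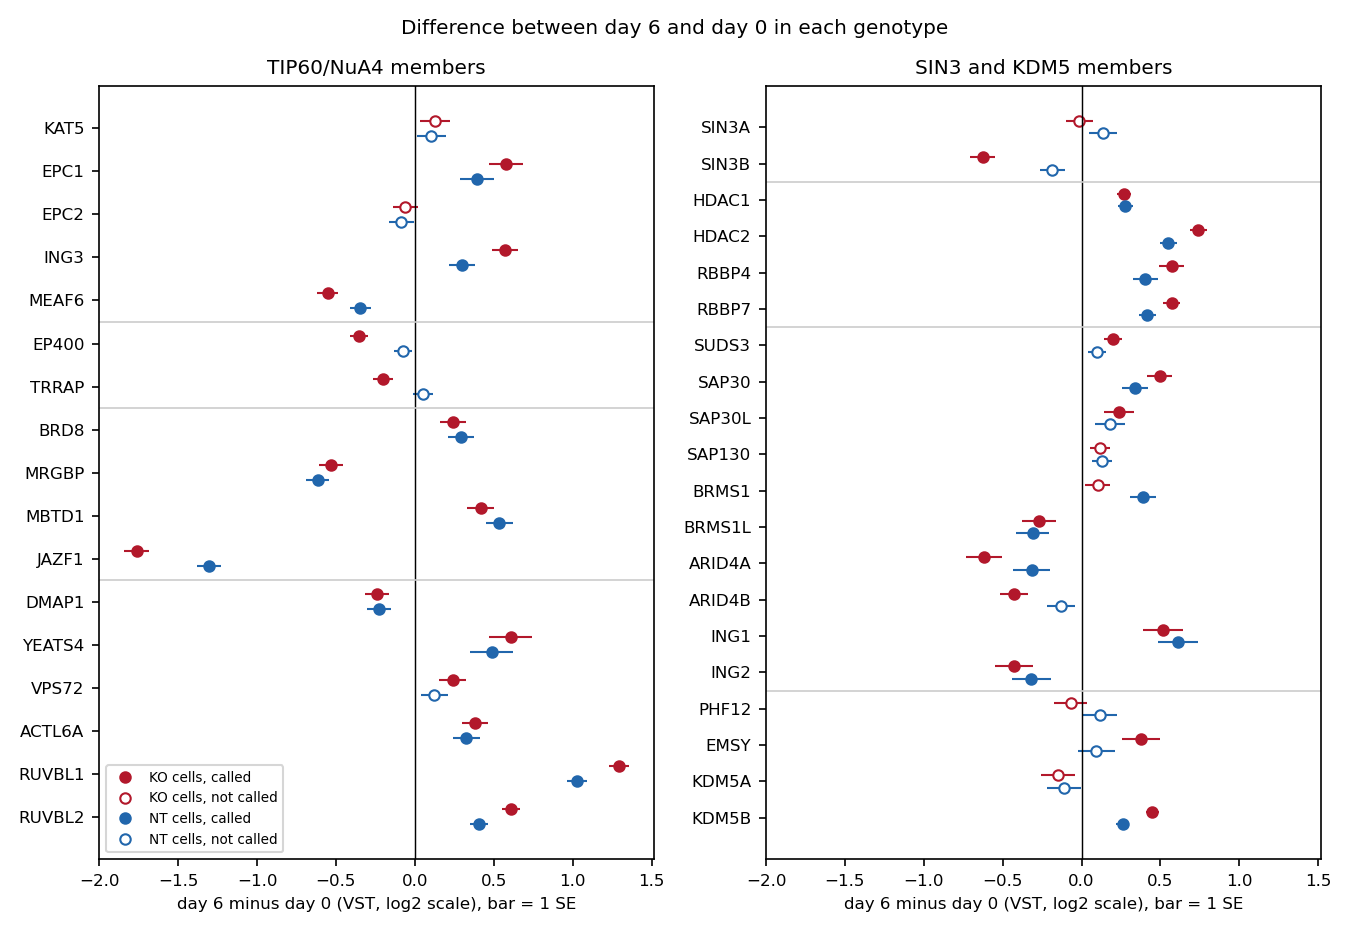
Difference between day 6 and day 0 (VST, log2 scale; horizontal axis) for each of the 37 genes (vertical axis, grouped by complex) in KO and NT cells, with bars of 1 SE; filled points are called genes. RUVBL1 lies highest, at 1.29 in KO and 1.03 in NT cells, and JAZF1 lowest, at -1.76 in KO and -1.30 in NT cells.

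The 6 remodeller subunits that NuA4 shares mostly rose over the days. Of them, 5 were higher in KO cells, beside 37.6% of all genes, and 4 in NT cells, beside 33.6%. Of these 6 genes DMAP1, which also binds a DNA methyltransferase, was lower in both. RUVBL1 was 2.53 times its day 0 level in KO cells and 2.1 times in NT cells, with differences of 1.29 (SE 0.06, adjusted p = 7.96e-11) in KO and 1.03 (SE 0.06, adjusted p = 1.8e-09) in NT cells. SEC61A1, which overlaps RUVBL1 on the other strand, differed by -0.66 in KO and -0.51 in NT cells, the opposite direction. RUVBL2 was 1.54 times its day 0 level in KO cells and 1.34 times in NT cells, at 0.61 (adjusted p = 1.3e-07) in KO and 0.41 (adjusted p = 1.45e-05) in NT cells. YEATS4, a reader of acetylated histones, and ACTL6A, an actin-related protein, were higher on day 6 in both genotypes. YEATS4 differed by 0.61 in KO and 0.49 in NT cells, and ACTL6A by 0.38 in KO and 0.33 in NT cells. VPS72, which binds H2A.Z, was higher in KO cells, at 0.24 (adjusted p = 0.0216) and not called in NT cells, at 0.12 (adjusted p = 0.224). The DMAP1 call over the days in KO cells was lost without KO library 1 of day 6 (adjusted p = 0.0679). The DMAP1 call over the days in NT cells was lost without NT library 1 or 3 of day 6 (adjusted p 0.0565 to 0.0577). The VPS72 call over the days in KO cells was lost without KO library 1 or 2 of day 6 or KO library 2 of day 0 (adjusted p 0.0623 to 0.0951). Without NT library 2 of day 0, VPS72 was called over the days in NT cells (adjusted p = 0.034).

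JAZF1 fell most of the 37 genes over the days. Its level on day 6 was 0.253 times that of day 0 in KO cells and 0.377 times in NT cells, with differences of -1.76 (SE 0.08, adjusted p = 1.99e-11) in KO and -1.30 (SE 0.08, adjusted p = 1.07e-09) in NT cells. TAX1BP1 on the other strand also fell, by 0.37 in KO cells and 0.48 in NT cells. Of the other readers, MRGBP fell in both genotypes, at -0.53 in KO and -0.62 in NT cells. BRD8, at 0.24 in KO and 0.29 in NT cells, and MBTD1, at 0.42 in KO and 0.54 in NT cells, rose in both. In the catalytic module EPC1 rose by 0.58 in KO and 0.39 in NT cells, ING3 rose by 0.57 in KO and 0.30 in NT cells, and MEAF6 fell in both, at -0.55 in KO cells and -0.35 in NT cells. KAT5 and EPC2 were called in neither, with 0.13 (adjusted p = 0.229) in KO and 0.10 (adjusted p = 0.331) in NT cells for KAT5. The BRD8 call over the days in KO cells was lost without KO library 3 of day 6 or KO library 3 of day 0 (adjusted p 0.0511 to 0.102). The scaffolds EP400, at -0.35 (adjusted p = 5.41e-05), and TRRAP, at -0.20 (adjusted p = 0.00763), fell in KO cells. Neither was called in NT cells, where EP400 had -0.08 (adjusted p = 0.248) and TRRAP 0.05 (adjusted p = 0.479).

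In SIN3, all 4 genes of the deacetylase core rose over the days in both genotypes, where 37.6% of all genes rose in KO cells and 33.6% in NT cells. HDAC2 rose most, by 0.74 (SE 0.05, adjusted p = 6.97e-09) in KO cells and 0.55 (SE 0.05, adjusted p = 3.03e-07) in NT cells, and HDAC1 by 0.27 in KO and 0.28 in NT cells. RBBP4 rose by 0.57 in KO cells and 0.40 in NT cells, and RBBP7 by 0.57 in KO and 0.42 in NT cells. SYNC, on the strand opposite RBBP4, fell by 2.41 in KO cells and by 1.53 in NT cells. TXLNG, opposite RBBP7, rose by 1.29 in KO and 1.10 in NT cells, and the antisense gene HDAC2-AS2, at a mean of 37.2 normalised counts, by 1.36 in KO and 0.85 in NT cells.

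The scaffold SIN3B fell in KO cells, with a difference of -0.63 (SE 0.08, adjusted p = 4.8e-06), and in NT cells had -0.19 (adjusted p = 0.0539). SIN3A was not called in either genotype, at -0.01 (adjusted p = 0.884) in KO and 0.14 (adjusted p = 0.176) in NT cells. Among the accessory genes SAP30 and ING1 rose in both genotypes, and BRMS1L, ARID4A and ING2 fell in both. ING1 differed by 0.51 in KO cells and 0.61 in NT cells, and its paralog ING2 by -0.43 in KO and -0.32 in NT cells. BRMS1 rose in NT cells, by 0.39 (SE 0.08, adjusted p = 0.000528), and was not called in KO cells, at 0.10 (SE 0.08, adjusted p = 0.262). SUDS3, SAP30L and ARID4B were called in KO and not in NT cells. SUDS3 had 0.20 in KO and 0.10 in NT cells, SAP30L had 0.23 in KO and 0.18 in NT cells, and ARID4B had -0.43 in KO and -0.13 in NT cells. SAP130 was called in neither genotype. Without NT library 2 of day 6, SAP30L was called over the days in NT cells (adjusted p = 0.0164). Without NT library 2 of day 6, SAP130 was called over the days in NT cells (adjusted p = 0.0278). KDM5B rose in both, by 0.45 in KO and 0.26 in NT cells. EMSY rose in KO cells, at 0.38 (adjusted p = 0.0102) and not in NT cells, at 0.09 (adjusted p = 0.508), and PHF12 and KDM5A were called in neither. The BRMS1L call over the days in KO cells was lost without KO library 1, 2 or 3 of day 6, KO library 2 or 3 of day 0 or with no filter (adjusted p 0.0521 to 0.146). The BRMS1L call over the days in NT cells was lost without NT library 2 of day 6 or NT library 2 or 3 of day 0 (adjusted p 0.0665 to 0.088). The ARID4A call over the days in NT cells was lost without NT library 1 of day 6 or NT library 1 or 3 of day 0 (adjusted p 0.0593 to 0.0995). The ING2 call over the days in NT cells was lost without NT library 3 of day 6, NT library 3 of day 0 or with no filter (adjusted p 0.0579 to 0.133). The SAP30L call over the days in KO cells was lost without KO library 1 or 2 of day 6, KO library 1 or 2 of day 0, with a common median, with limma without the trend or with no filter (adjusted p 0.0511 to 0.104). The EMSY call over the days in KO cells was lost without KO library 2 of day 0 (adjusted p = 0.0558). Without KO library 1 or 2 of day 6, NT library 1 of day 6, NT library 2 of day 0 or with a common median, SIN3B was called over the days in NT cells (adjusted p 0.0203 to 0.0393).

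A call in one genotype or day alone does not show that the 2 differ, so the KO effect on day 6 was set against that on day 0 in the same fit. This difference was called for 4 of the 37 genes, or 10.8%, beside 20.3% of all genes tested, with 1 positive (9.07% of all genes) and 3 negative (11.2%). JAZF1, at -0.46 (SE 0.11, adjusted p = 0.00843), SIN3B, at -0.44 (SE 0.11, adjusted p = 0.0136) and EP400, at -0.28 (SE 0.08, adjusted p = 0.0275) were lower relative to NT cells on day 6 than on day 0, and KDM5B was higher, at 0.19 (SE 0.06, adjusted p = 0.0368). The estimates for SIN3B had opposite signs, -0.20 on day 6 and 0.24 on day 0, although neither was called on its own. For BRMS1 the difference was -0.29 (adjusted p = 0.0879), for RUVBL1 0.27 (adjusted p = 0.052) and for TRRAP -0.25 (adjusted p = 0.0515), none of them called. The EP400 call in this comparison was lost without KO library 1 or 3 of day 6, NT library 3 of day 6, KO library 2 or 3 of day 0, NT library 1 or 2 of day 0, with limma without the trend or with no filter (adjusted p 0.0505 to 0.0859). The KDM5B call in this comparison was lost without KO library 2 or 3 of day 6, NT library 1, 2 or 3 of day 6, KO library 1 or 2 of day 0, NT library 1 or 2 of day 0, with limma without the trend or with no filter (adjusted p 0.0505 to 0.144). RUVBL1 was called in this comparison without NT library 2 of day 6, KO library 2 of day 0, with a common median, with a filter at 2 above the lowest value, after quantile normalisation or with the replicate block (adjusted p 0.0208 to 0.046). TRRAP was called in this comparison without NT library 2 of day 6, NT library 3 of day 0, with a filter at 2 above the lowest value, after quantile normalisation or with the replicate block (adjusted p 0.0172 to 0.0453). BRMS1 was called in this comparison with the replicate block (adjusted p = 0.0461). HDAC2, RUVBL2, RBBP4, ARID4B and EMSY were not called either. HDAC2 was called in this comparison without NT library 2 of day 6 or after quantile normalisation (adjusted p 0.0389 to 0.0399). RUVBL2 was called in this comparison without NT library 3 of day 0 (adjusted p = 0.0397). RBBP4 was called in this comparison without KO library 2 of day 6 (adjusted p = 0.0271). ARID4B was called in this comparison without NT library 1 of day 6 or NT library 1 of day 0 (adjusted p 0.0254 to 0.0497). EMSY was called in this comparison without KO library 1 of day 0 (adjusted p = 0.0453). This comparison shares its libraries with all the others.

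Paralogs within a complex were compared by their levels per kilobase of transcript, as the share of one in the pair's sum in each library. SIN3A took 47.3, 45.6 and 48.5% of the SIN3A and SIN3B sum in KO cells, against 39.9, 45.0 and 46.5% in NT cells on day 6. On day 0 it took 34.5, 35.3 and 39.5% in KO cells, against 38.3, 39.9 and 36.2% in NT cells. The days did not overlap in KO cells and did in NT cells, and the genotypes overlapped on both days. HDAC1 took a mean of 29.4% of the HDAC1 and HDAC2 sum in KO cells and 32.1% in NT cells on day 6, and on day 0 36.6% in KO and 36.3% in NT cells. Its share was lower on day 6 in both genotypes without overlap, and lower in KO than in NT cells on day 6 without overlap. ING1 took 63.1% of the ING1 and ING2 sum in KO cells and 62.1% in NT cells on day 6, and on day 0 43.6% in KO and 42.8% in NT cells, the widest shift of the 10 pairs over the days.

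BRMS1 outweighed BRMS1L per kilobase in every library. Its share was 92.0, 92.0 and 91.5% in KO cells and 89.6, 90.4 and 88.9% in NT cells on day 6, and 90.3, 88.4 and 89.0% in KO cells and 86.8, 82.8 and 79.8% in NT cells on day 0. None of the 4 comparisons of groups overlapped. EPC1 took 49.0% of the EPC1 and EPC2 sum in KO cells and 47.7% in NT cells on day 6, and on day 0 37.1% in KO and 38.8% in NT cells. RUVBL1 took 31.3% of the RUVBL1 and RUVBL2 sum in KO cells and 32.5% in NT cells on day 6, and on day 0 21.7% in KO and 23.5% in NT cells. The EPC1 and RUVBL1 shares were both higher on day 6 without overlap and overlapped between genotypes. KDM5A took 13.5% in KO cells and 16.98% in NT cells of the KDM5A and KDM5B sum on day 6, without overlap between genotypes, and on day 0 19.3% in KO and 21.0% in NT cells. The shares within the RBBP4, SAP30 and ARID4A pairs overlapped in all 4 comparisons. These shares were not tested. They use the median length over a gene's transcripts. With the longest transcript, all 40 comparisons of groups kept their overlap or lack of it, but the larger paralog changed in the HDAC, RBBP4 and SAP30 pairs in every group, and in the ING and EPC1 pairs on day 6. HDAC1 then took 66.4% in KO cells and 69.1% in NT cells on day 6, and 73.3% in KO and 73.0% in NT cells on day 0. ING1 took 40.4% in KO and 39.6% in NT cells on day 6, and 23.6% in KO and 22.9% in NT cells on day 0. The day 6 share of EPC1 was then 56.2% in KO and 54.9% in NT cells, that of RUVBL1 44.0% in KO and 45.4% in NT cells, and that of KDM5A 20.5% in KO and 25.1% in NT cells. Which paralog of these 5 pairs is more abundant thus cannot be read from these values.

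**Figure D5:**
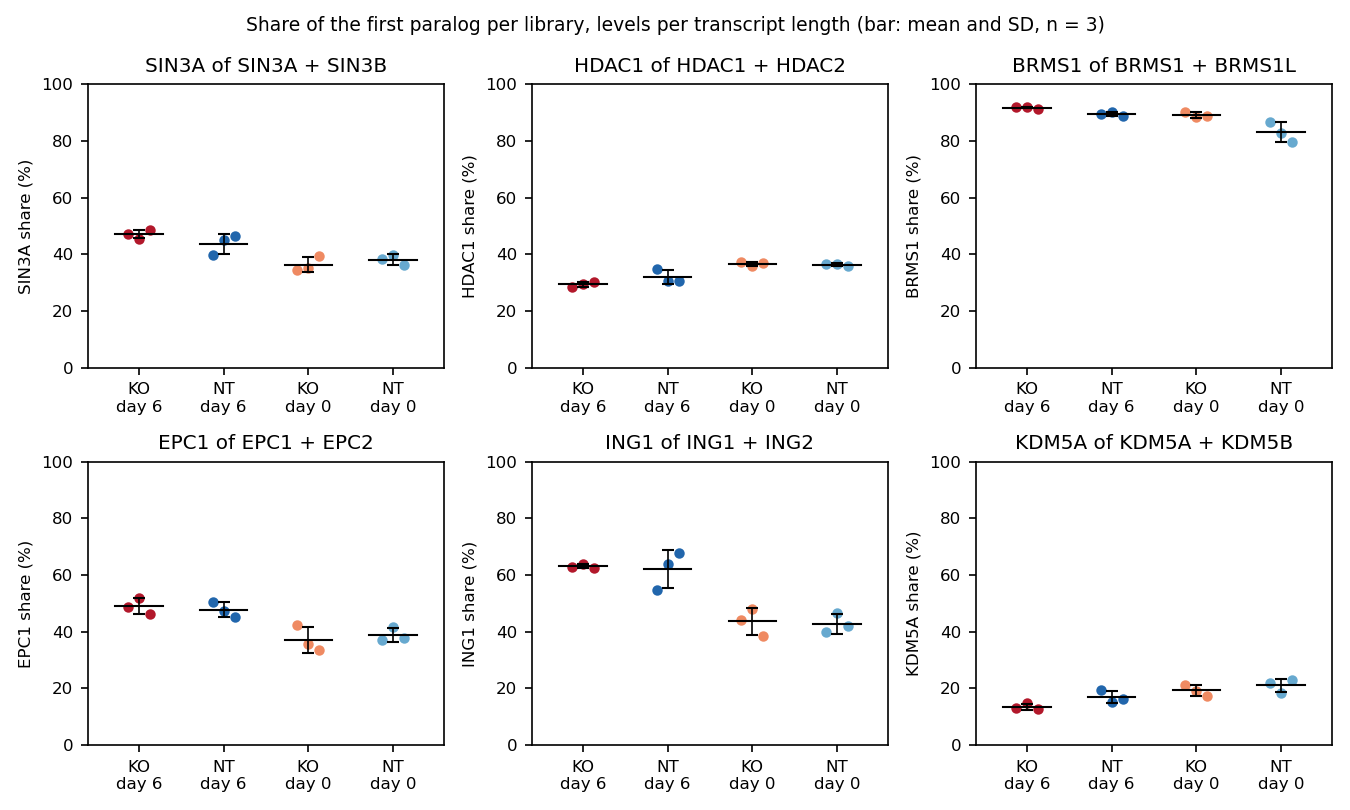
Share of the first named paralog in the pair's summed level per kilobase (percent; vertical axis) in each library (points), with bars for the group mean and SD (n = 3), for KO and NT cells on day 6 and on day 0. The ING1 share averages 63.1% in KO and 62.1% in NT cells on day 6, and 43.6% in KO and 42.8% in NT cells on day 0.

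Genes of related complexes give a frame for these values, with shares of all genes of 17.7% higher and 19.2% lower in KO cells on day 6, and 7.42% higher and 10.7% lower on day 0. Among 7 further SIN3 subunits, 3 were higher and 1 lower in KO cells on day 6, and 1 lower on day 0. SINHCAF, a SIN3 subunit known in mouse embryonic stem cells, had 1931 ± 103 normalised counts in KO cells and 1230.3 ± 26.2 in NT cells on day 6 (SD, n = 3 each), a difference of 0.63 (adjusted p = 9.38e-06). OGT, which attaches a sugar to nuclear proteins, was lower in KO cells on day 6, at -0.61 (adjusted p = 6.38e-07). Of 10 subunits particular to the CoREST complex, 3 were higher and none lower on day 6, and on day 0, 2 were higher and 1 lower. KDM1A, the H3 lysine 4 demethylase of CoREST, had 10968 ± 209.7 in KO cells and 6998 ± 488 in NT cells on day 6, a difference of 0.65 (adjusted p = 1.05e-07). Of 10 NuRD subunits, 3 were higher and 1 lower on day 6, led by MTA3, at 0.38 (adjusted p = 0.000653) and CDK2AP1, at -0.38 (adjusted p = 0.000191), and 1 was lower on day 0.

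The 15 subunits of SRCAP and INO80 that NuA4 does not share had 4 higher and none lower in KO cells on day 6, led by ACTR6, at 0.56 (adjusted p = 0.00135), and 1 higher on day 0. H2AZ1, a gene for the histone variant H2A.Z that EP400 helps to place, was higher in KO cells on both days. It differed by 0.38 (adjusted p = 0.000115) on day 6, and by 0.24 (adjusted p = 0.00852) before OSKM. Of the 3 genes of H2A.Z and its chaperone, 1 was higher in KO cells on day 6 and 2 on day 0. Among 15 genes of the other MYST acetyltransferases, 3 were higher on day 6, and 1 was higher and 1 lower on day 0. Among 18 genes of the SAGA and ATAC acetyltransferases, 3 were higher and 2 lower on day 6, and 1 was higher and 1 lower on day 0.

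Over the days, where 37.6% of all genes were higher and 36.2% lower in KO cells, and 33.6% higher and 33.1% lower in NT cells, the further SIN3 subunits had 5 higher and 2 lower in KO cells and 4 higher and 3 lower in NT cells. SINHCAF rose by 1.57 (adjusted p = 3.26e-11) in KO cells and by 1.09 (adjusted p = 3.74e-09) in NT cells. The CoREST subunits had 6 higher and 2 lower in each genotype, led by KDM1A, which rose by 1.90 (adjusted p = 3.85e-14) in KO cells and by 1.36 (adjusted p = 3e-12) in NT cells. The NuRD subunits had 4 higher and 4 lower in KO cells and 4 higher and 6 lower in NT cells. The subunits of SRCAP and INO80 had 5 higher and 3 lower in KO cells and 4 higher and 2 lower in NT cells, led by INO80C, an INO80 subunit, at 1.14 (adjusted p = 2.43e-07) in KO and 1.01 (adjusted p = 1.28e-06) in NT cells. The MYST genes had 5 higher and 4 lower in KO cells and 4 higher and 3 lower in NT cells. The SAGA and ATAC genes had 4 higher and 4 lower in KO cells and 3 higher and 5 lower in NT cells. The 3 genes of H2A.Z and its chaperone were higher on day 6 in both genotypes.

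Sequence that these genes share with others could limit some of these values. Of the 37 genes, 16 overlap a tested gene on the opposite strand, among them RUVBL1, JAZF1, HDAC2, RBBP4 and RBBP7. ARID4B overlaps one on its own strand. Overlap was taken between whole gene spans, introns included, so such pairs need not share transcript sequence. The library kit keeps strand, but whether the counting used it is not given in the sources used here. How far reads of such pairs were mixed was not tested.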

How the data were processed

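Libraries were TruSeq Stranded mRNA from RNA isolated with a kit of Zymo Research, per the labels' protocols. Tools of the authors were Salmon, STAR and DESeq2 with the build GRCh38, per the submitters' processing notes. Versions, settings, strand use and annotation were not given in the sources used here. Deposited was 1 table of values that the authors put on a log2 scale with the variance-stabilising transformation of DESeq2, with 1 column per library. The lowest value, 4.85, stands for 0 reads. Symbols were found for 60641 of 60660 identifiers, and coordinates from GENCODE 29 for 58429.

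Normalised counts were estimated by inverting the transformation, whose parametric form was assumed. Scaled to reads, 65.8 to 71.1% of low values per library lay within 0.1 of a whole number, too few for a count test.

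Genes with a mean at least 1 above the lowest value were tested with limma 3.58.1 (trend option, R 4.3.3) on the deposited values. All 12 libraries in 4 groups were in 1 fit, without a block for the replicate number. Tests were two-sided with Benjamini-Hochberg adjustment over all genes tested and a threshold of 0.05. Residuals of libraries with the same number correlated at -0.053 to 0.0634, so numbers were not taken as pairs. Alternatives were no filter or a filter at 2, quantile normalisation, a common median, log2 of estimated counts with a pseudocount of 1 or 10, the replicate block, limma without the trend, fits of the 2 compared groups alone, and each library left out. Levels per kilobase used the median transcript length, and the longest as an alternative chosen after seeing the data.

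The members and lists were chosen with earlier results of these data known. The rule for values in every library takes members called between genotypes, or in the difference between days, at an absolute difference of at least 0.3, and members called over the days in both genotypes with a difference of at least 1. Beyond JAZF1, RUVBL1, RUVBL2, SIN3B, BRMS1 and the MRG genes, which it takes, library values were chosen for display after they were seen. From each further list the rule names up to 2 called genes with the largest difference, and some of these are left out of the text.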

Additional observations from a re-analysis of the deposited data

Results flagged for a closer look

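For 5 genes the KO effect differed between the days in limma's test of that difference, all at an adjusted p under 0.05. They are 4 of the 37 genes, or 10.8%, and MORF4L1, while 20.3% of all genes tested were called. JAZF1 had -0.46, as KO cells lay -0.81 from NT cells on day 6 and -0.35 on day 0. SIN3B had -0.44, with KO effects of -0.20 on day 6 and 0.24 on day 0, so that its sign differed by day. EP400 had -0.275, with -0.19 and 0.08, and KDM5B had 0.186, with 0.27 and 0.09. MORF4L1, the edited gene, had -0.214, with -2.70 and -2.49. The JAZF1 and SIN3B calls held in every alternative run, and those of EP400, KDM5B and MORF4L1 did not. The MORF4L1 call in this comparison was lost without KO library 2 or 3 of day 6, NT library 2 or 3 of day 6, KO library 2 or 3 of day 0, NT library 1, 2 or 3 of day 0, with a common median, with limma without the trend or with no filter (adjusted p 0.0525 to 0.145). The causes were not tested.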

How the results depend on the processing

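Of 4056 values of single genes under alternatives, 3908 kept their side of the threshold, 99 lost a call, 48 gained one and 1 called value changed sign. Another 74 values that were not called also changed sign, all at most 0.128 in size before the change. The called one is MORF4L1 in NT cells between day 6 and day 0, which was 0.096 after quantile normalisation and -0.16 without it. The number of the 37 genes called between KO and NT cells on day 0 was 5. It was 2 with no filter and 9 after quantile normalisation, of which 8 were higher. For the difference between the KO effects of the 2 days the number was 4. It was 2 with no filter, 2 without the trend, 7 after quantile normalisation (3 positive) and 7 with the replicate block (2 positive). The replicate block changed no other of these counts. With 1 library left out, the counts ranged from 9 to 13 between genotypes on day 6 and from 2 to 6 on day 0. Over the days they ranged from 26 to 30 in KO cells and from 20 to 24 in NT cells, and from 2 to 6 for the difference between days. The day 0 count was 2 without KO library 1, 2 or 3 of day 0 or NT library 1 of day 0. The count for the difference between days was 2 without KO library 3 of day 6, NT library 3 of day 6 or NT library 2 of day 0. Totals called over all genes stayed within 1.5 times, while the genes positive for the difference between days numbered 877 with no filter, against 1348. The fit of only the 2 groups compared could not be made for the difference between days. With the longest transcripts, the RUVBL1 share rose over the days by 11.6 points in KO and 10.8 in NT cells, against 9.56 in KO and 9.03 in NT cells with median lengths, and the KDM5A share in KO cells changed by -7.74 points, against -5.76. SIN3A relative to its chromosome was 0.32 higher in KO cells on day 0, against 0.14. The causes were not tested.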
